A study of Mus musculus with 12 samples.

Results

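Cell-cell junction genes were examined in mouse ear skin: the claudins of tight junctions, the connexins of gap junctions and the cadherins and plaque proteins of desmosomes. Members were all gene symbols beginning with Cldn, Gja, Gjb, Gjc, Dsg or Dsc followed by a digit, together with Dsp, Jup, Pkp1, Pkp2, Pkp3, Tjp1, Ocln and Cdh1. This gave 59 of the 23234 symbols listed in each library: 26 claudins, 16 connexins, 9 desmosomal cadherins, 5 desmosome plaque genes, 2 further tight junction genes and the adherens junction cadherin Cdh1. Of these, 38 reached at least 1 FPKM (fragments mapped to a gene, per kilobase of its transcript and relative to the library's mapped fragments) in at least 3 of 12 libraries and were tested among 14059 genes.

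Claudins are membrane proteins whose strands seal the space between neighbouring cells, and in epidermis the sealing strands lie in the granular layer. Connexins form channels through which small molecules pass from cell to cell, and keratinocytes express many of them at once. Desmogleins and desmocollins hold keratinocytes together from outside, while plakoglobin, plakophilins and desmoplakin tie them to keratin filaments inside.

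RNA was sequenced from ear skin of mice aged 8 to 12 weeks, in 4 groups of 3 libraries. Wild type C57BL/6J ears were left untreated (WT_untreated), received phosphate-buffered saline (WT_PBS) or received 100 mg of Oxarol ointment holding 2.5 µg of maxacalcitol, an active vitamin D3 analogue (WT_Oxarol). The last group, named VDRcKO_Oxarol after its label, had the genotype K5-Cre;VDR f/f and received the same ointment. In it the keratin 5 promoter drives Cre; the floxed gene is Vdr, for the vitamin D receptor, and basal keratinocytes with their progeny are the cells targeted, while dermal cells are not. Treated ears were collected 1 day after application. PBS is not the base of the ointment, so the drug and its base cannot be told apart, and no group holds this genotype without ointment or the floxed allele without Cre.

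Vdr stood at 4.87 to 9.57 FPKM in WT_untreated, 9.28 to 10.1 in WT_PBS, 6.68 to 7.87 in WT_Oxarol, and 23.6, 25.0 and 18.0 in the libraries labelled VDRcKO_Oxarol. Its level over the whole gene thus went against the direction of that label; reads from undeleted exons and from cells without Cre enter it, so it is no check of the deletion. Cyp24a1, the vitamin D-degrading enzyme and a standard target of the receptor, reached 66.2, 599 and 458 FPKM with ointment in wild type but 0 to 0.271 in the libraries labelled VDRcKO_Oxarol. Keratinocyte markers were high in every library, with Krt5 at 445 to 708, Krt14 at 907 to 1837 and Krt10 at 2176 to 4743 FPKM. Relative to WT_untreated replicate 1, the VDRcKO_Oxarol libraries held 0.321, 0.382 and 0.473 of the reads, WT_Oxarol replicate 3 held 0.518 and the other resolved libraries held 0.717 to 1.69. These estimates come from the steps of the low values; a factor of 2 remains possible for each, and WT_PBS replicate 3 could not be resolved. The library codes fall into 2 runs: the first holds replicates 1 and 2 of each wild type group, the second holds replicate 3 of each and all VDRcKO_Oxarol libraries. Genotype is therefore tied in part to the run of codes and to depth.

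The 250 bases before the annotated start are shown for 4 members on which the results below turn: the connexin pair called higher in ointment-treated than in untreated wild type ears, Gjb2 and Gjb6, and the claudin pair that moved in opposite directions between genotypes, Cldn4 and Cldn1. They come from RefSeq with the build GRCm38.p6, whereas the expression values were made on mm9. Each lies on the minus strand and is printed 5′ to 3′ along the gene. Gjb2 (chr14:57104703-57104952) and Gjb6 (chr14:57133612-57133861) are neighbours. Cldn4 lies at chr5:134946935-134947184 and Cldn1 at chr16:26371840-26372089. Capitals mark the motifs searched on both strands.
Gjb2: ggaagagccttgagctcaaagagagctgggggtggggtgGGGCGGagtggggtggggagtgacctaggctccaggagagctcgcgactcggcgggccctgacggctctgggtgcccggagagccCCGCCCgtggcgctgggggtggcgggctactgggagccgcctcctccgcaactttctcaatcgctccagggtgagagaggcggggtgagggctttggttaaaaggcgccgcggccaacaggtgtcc
Gjb6: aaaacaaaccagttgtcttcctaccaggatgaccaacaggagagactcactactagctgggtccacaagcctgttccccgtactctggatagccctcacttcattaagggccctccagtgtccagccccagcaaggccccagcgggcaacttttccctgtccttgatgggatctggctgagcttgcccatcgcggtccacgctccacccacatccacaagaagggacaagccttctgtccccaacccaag
Cldn4: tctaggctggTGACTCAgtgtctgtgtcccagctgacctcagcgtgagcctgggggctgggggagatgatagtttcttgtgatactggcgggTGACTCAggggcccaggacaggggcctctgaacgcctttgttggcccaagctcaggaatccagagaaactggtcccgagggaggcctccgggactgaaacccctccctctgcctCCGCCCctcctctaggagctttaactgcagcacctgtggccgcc
Cldn1: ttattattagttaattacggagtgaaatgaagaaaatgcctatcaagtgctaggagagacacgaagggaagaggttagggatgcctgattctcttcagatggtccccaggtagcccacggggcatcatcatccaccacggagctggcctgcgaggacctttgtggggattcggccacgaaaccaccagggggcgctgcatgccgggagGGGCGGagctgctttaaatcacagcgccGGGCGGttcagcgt
The motifs were the GC box (GGGCGG), the AP-1 site (TGANTCA) and the direct repeat of receptor half-sites with 3 spacer bases; none overlapped another in these windows. Of 32841 RefSeq windows of the same length, 32.7% held a GC box, 6.75% an AP-1 site and 0.0396% the direct repeat. Cldn4 held 2 AP-1 sites, which begin 240 and 158 bases before the start, and 1 GC box. Gjb2 and Cldn1 held 2 GC boxes each. The Gjb6 window held no match to any of the 3 motifs, and none of the 4 windows held the direct repeat. Entries were found for 34 of the 59 members.

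Levels differed between members by orders of magnitude, on a scale (FPKM) that allows for gene length. Among claudins Cldn4 was highest, with 94.3 to 197 FPKM, followed by the symbol Cldn25 (69.0 to 98.1), Cldn1 (49.8 to 87.1) and Cldn23 (13.7 to 29.3). Cldn1 is the claudin without which the mouse epidermis loses its water barrier. The ranges of Cldn4 and Cldn25, and of Cldn25 and Cldn1, overlapped over the 12 libraries. Cldn5, a claudin of blood vessel endothelium, stood at 8.23 to 13.3, and Cldn10, Cldn12, Cldn8, Cldn3, Cldn22 and Cldn2 had lower medians. In RefSeq, Cldn25 is a synonym of both Cldnd1 and Cldn25-ps, so which gene this symbol counts was not settled.

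Gja1, which encodes Cx43, the most widespread connexin, ranged from 61.2 to 150 FPKM and Gjb5, a connexin of keratinocytes, from 33.4 to 68.5. Gjb2 and Gjb6, which encode Cx26 and Cx30 and are mutated in inherited deafness and skin disease, spread most among the connexins above 1 FPKM in every library: 7.81-fold between the lowest and highest library for Gjb2 and 9.06-fold for Gjb6. By comparison, Gja1 spread 2.45-fold and Gjb5 2.05-fold. Gjc3, Gja4, Gjc1, Gjb1, Gja5 and Gja3 were at or below 6.71 FPKM in every library.

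Of the desmosomal cadherins, Dsg1a (137 to 237 FPKM) and Dsc3 (135 to 213) were highest. Dsg1b and Dsg1c are near-identical copies of Dsg1a, and their values may share reads with it: the ratio of Dsg1b to Dsg1a was 0.206 to 0.263 and that of Dsg1c to Dsg1a 0.123 to 0.152 over all 12 libraries. The plaque genes Dsp, Jup, Pkp1 and Pkp3 reached 107 FPKM or more in at least 1 library each. Dsg3, the desmoglein of deeper epidermal layers, stood at 9.32 to 18.5 and Dsc1, the desmocollin of the upper layers, at 3.56 to 10.3. Tjp1, the scaffold that links claudins to actin, stood at 4.08 to 6.78, and the tight junction protein gene Ocln at 12.7 to 18.7.

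**Figure D1:**
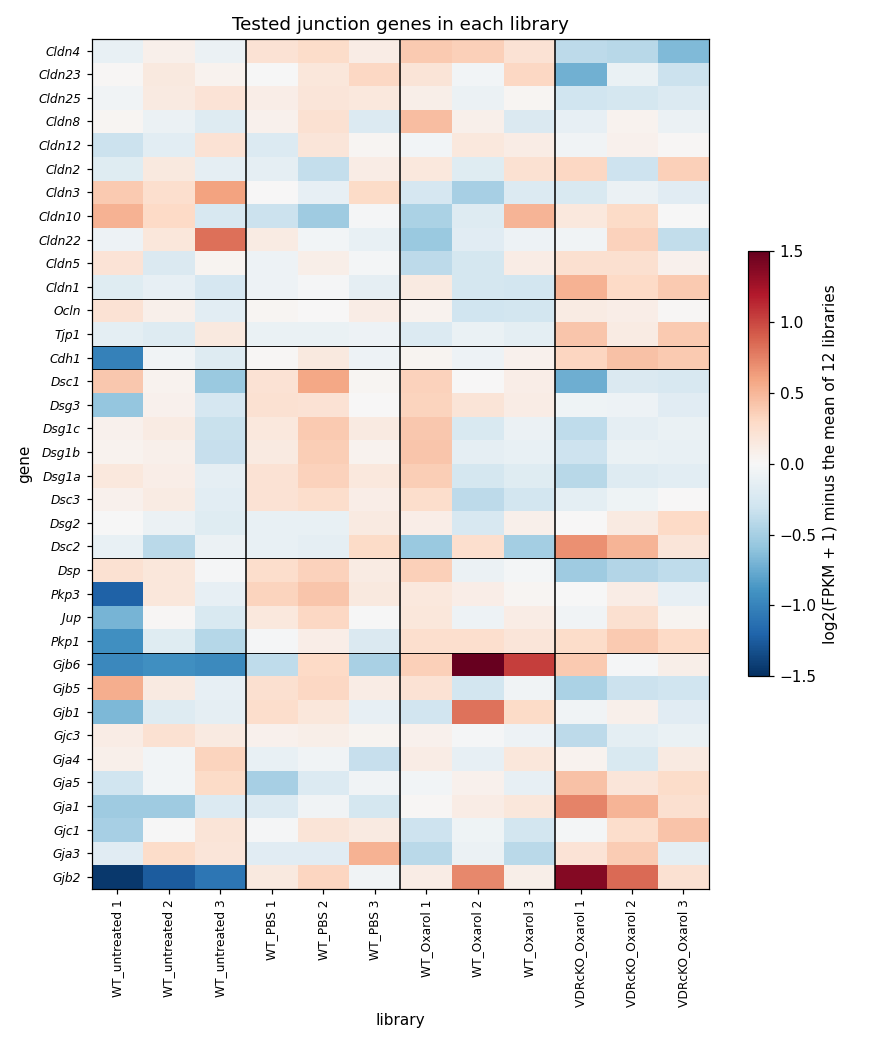
Each row is 1 of 36 tested junction genes and each column 1 of the 12 libraries; the colour gives log2(FPKM + 1) minus the mean of that gene over the 12 libraries, cut off at -1.5 and 1.5. Gjb2 and Gjb6 are low in all 3 WT_untreated libraries, and WT_untreated replicate 1 alone is low in Cdh1, Pkp3 and Jup.

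Gjb6 and Gjb2 were higher, and Cldn3 lower, in ointment-treated than in untreated wild type ears. Gjb6 was listed at 1.45, 1.55 and 1.48 FPKM in WT_untreated, 2.69, 4.91 and 2.44 in WT_PBS, 5.18, 13.2 and 8.89 in WT_Oxarol, and 5.33, 3.77 and 4.11 in VDRcKO_Oxarol. All WT_Oxarol libraries exceeded all WT_PBS and WT_untreated libraries, and those labelled VDRcKO_Oxarol overlapped WT_Oxarol only through its lowest library. Against WT_untreated Gjb6 rose by 1.93 ± 0.28 (SE) on the log2(FPKM + 1) scale (limma with Benjamini-Hochberg adjustment over all genes tested, adjusted p = 0.0125), a 6.08-fold difference of the group means. In bulk skin, more cells of a type and more RNA per cell cannot be told apart.

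Gjb2 stood at 8.95, 10.5 and 11.8 FPKM in WT_untreated, 29.1, 33.2 and 25.2 in WT_PBS, 28.4, 43.7 and 28.0 in WT_Oxarol, and 69.9, 48.0 and 30.8 in VDRcKO_Oxarol. Every treated library, PBS included, lay above every untreated one, while the 3 treated groups overlapped each other. The rise from WT_untreated to WT_Oxarol was 1.57 ± 0.26 (SE, log2; adjusted p = 0.0258). With PBS alone the difference was 1.40 ± 0.26 (2.80-fold), with adjusted p = 0.392. Between WT_Oxarol and WT_PBS it was 0.17 ± 0.26 (95% interval -0.42 to 0.75), with adjusted p = 0.994.

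Cldn3, a claudin of tight-sealing epithelia, was the member called lower. It was listed at 3.68, 3.26 and 4.45 FPKM in WT_untreated, 2.59, 2.28 and 3.36 in WT_PBS, 2.01, 1.54 and 2.103 in WT_Oxarol and 2.06, 2.37 and 2.18 in VDRcKO_Oxarol. WT_Oxarol lay below both other wild type groups without overlap. The decrease from untreated to ointment-treated wild type ears was -0.73 ± 0.14 (SE, log2; adjusted p = 0.0361).

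In this comparison 2 of 38 tested members were higher and 1 lower, where 0.989% and 0.320% of all genes tested were called higher and lower. The median log2 difference was 0.07 over the members and 0.00 over all genes. An unadjusted p under 0.05 (limma) was found for 11 of 38 members and 17.1% of all genes tested. The share of all genes without overlap was not counted for this comparison. Among cell type markers Krt1, a suprabasal keratin, was the 1 of 7 suprabasal genes called, and was higher. Krt15, a basal keratin, was the 1 of 7 basal genes called, and was lower. In each of these lists 4 of 7 genes differed upwards, with medians of 0.06 (suprabasal) and 0.05 (basal). None of 8 skeletal muscle markers was called by limma, but all 8 were lower with an unadjusted p under 0.05 (median -0.94). Their sums were 4004 to 9016 FPKM untreated and 2125 to 3571 after ointment. With PBS alone the sums were 1815 to 3498 FPKM. There too all 8 were lower than untreated (median -1.03), 7 with an unadjusted p under 0.05 (limma). Between WT_Oxarol and WT_PBS the median of these markers was 0.05, so the lower level was not particular to ointment. The part of these markers in the junction gene results was not tested. Pkp1, a plakophilin that strengthens desmosomes, differed by 0.73 ± 0.16 (adjusted p = 0.0527), with 56.3, 94.5 and 79.4 FPKM untreated against 128, 127 and 122 after ointment, without overlap. Gja1 (0.52 ± 0.13, adjusted p = 0.0920) and Cldn4 (0.36 ± 0.10, adjusted p = 0.103) were likewise above WT_untreated in all 3 WT_Oxarol libraries and did not pass. Without WT_Oxarol replicate 3, none of the 3 members passed (Gjb6 at 1.91 with adjusted p = 0.0711), and none passed when only these 2 groups were fitted. Of all genes, 28 and 20 passed in these settings. Gjb2 also lost its call without WT_untreated replicate 2 or 3 or WT_Oxarol replicate 2 (1.36 to 1.68 over the 4 losses), and Cldn3 without WT_untreated 3, WT_PBS 1, WT_Oxarol 2 or any VDRcKO_Oxarol library (-0.79 to -0.64 over all 7).

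None of the 38 tested members passed between WT_Oxarol and WT_PBS (limma), against 43 of all genes tested (0.306%), and 2 of 38 had an unadjusted p under 0.05, as did 1047 of all genes (7.45%). Gjb6 came nearest, with a log2 difference of 1.18 ± 0.28 (2.71-fold, adjusted p = 0.162). It was the 1 member called when WT_Oxarol replicate 1 was left out, where 128 of all genes were called. Cldn3 differed by -0.37 ± 0.14 (adjusted p = 0.483). The groups did not overlap for 6 of 38 members, where 15.9% of all genes did not overlap: Gjb6, Gja1 and Pkp1 lay above WT_PBS, and Cldn3, Cldn25 and Gjc1 below. The median difference was -0.07 over the members and 0.01 over all genes.

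Between WT_PBS and WT_untreated no member passed either (limma), while 1 gene of all tested did (0.00711%). An unadjusted p under 0.05 was found for 10 of 38 members and 1312 of all genes tested (9.33%). Among those members, Cdh1, Jup, Pkp1, Pkp3 and Dsg3 overlapped between the groups. Each of them was lowest of all libraries in WT_untreated replicate 1, and the part of that library in this count was not tested. Of the 38 members, 8 did not overlap, against 13.0% of all genes. Gjb2, Gjb6, Gjb1, Cldn4 and Dsg1c were among those above WT_untreated, and Gja4 and Gjc3 lay below. The members' median difference was 0.15 and that of all genes 0.00. The comparisons of WT_PBS and of WT_Oxarol with WT_untreated share the untreated libraries.

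**Figure D2:**
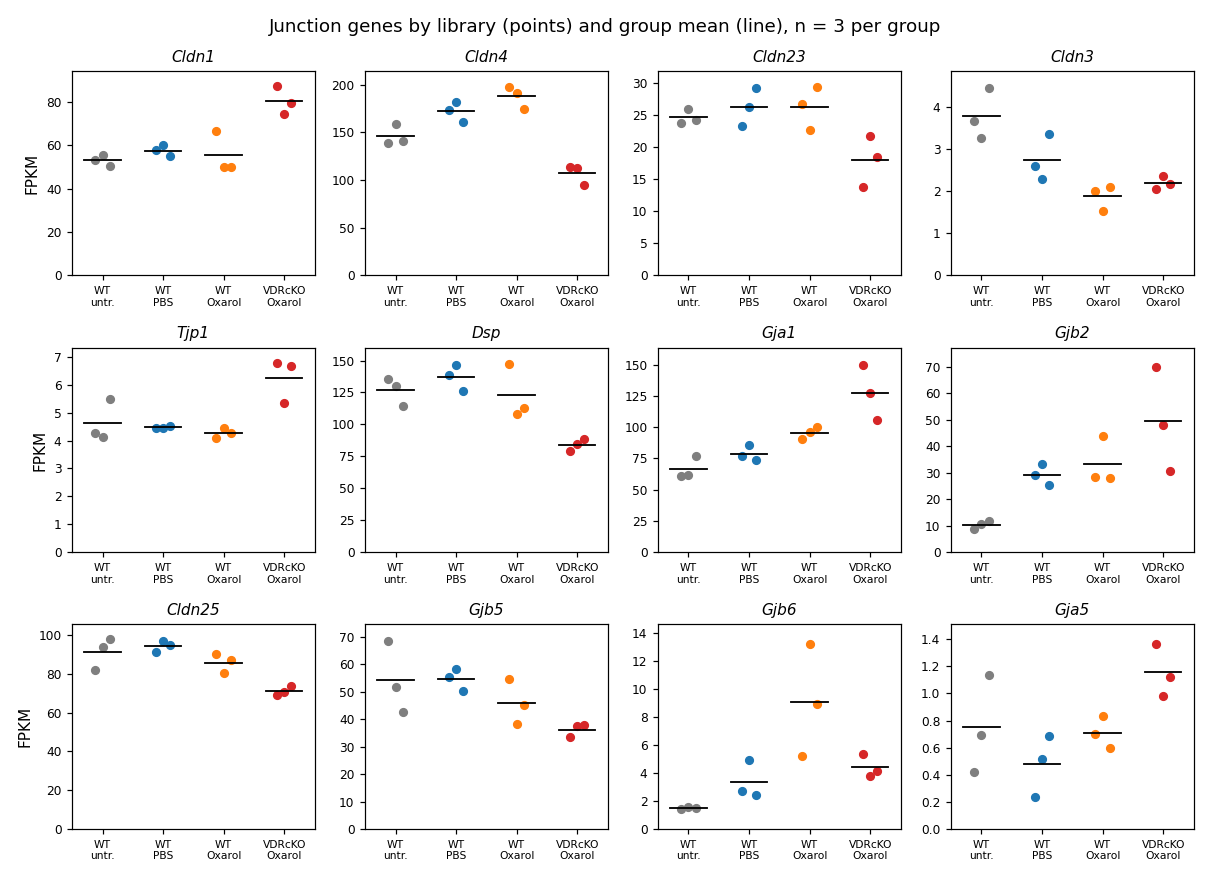
FPKM of 12 members, 1 panel per gene with an axis from 0; points are the 3 libraries of each group in replicate order and the line is their mean. Gjb2 is at most 11.8 FPKM in WT_untreated and at least 25.2 in every treated library, and Cldn4 is at most 114 FPKM in VDRcKO_Oxarol and at least 139 elsewhere.

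Between genotypes under ointment, 3 of the 11 tested claudins were called, and not all in 1 direction. Cldn4 was lower and Cldn1 higher in the libraries labelled VDRcKO_Oxarol; Cldn23 and Dsp were lower and Tjp1 higher. Of 38 tested members 2 rose and 4 fell, where 8.71% of all genes tested were called higher and 4.43% lower. The median log2 difference was -0.03 over the members and 0.08 over all genes. An unadjusted p under 0.05 (limma) was found for 15 of 38 members and 32.2% of all genes tested. The share of all genes without overlap was not counted here, so lack of overlap is given below as description only. The calls also included 1 of 2 other tight junction genes, 1 of 4 plaque genes and none of 8 desmosomal cadherins.

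Cldn4, a sealing claudin of the upper epidermis, stood at 139, 158 and 141 FPKM in WT_untreated, 173, 182 and 161 in WT_PBS, 197, 191 and 174 in WT_Oxarol, and 114, 112 and 94.3 in VDRcKO_Oxarol. The last group lay below all 9 wild type libraries. Its decrease from WT_Oxarol was -0.81 ± 0.10 (SE, log2; adjusted p = 0.00303), to 0.569 of the WT_Oxarol mean. It passed under all 19 alternatives tried, with values of -0.91 to -0.72.

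Cldn1 stood at 53.1, 55.6 and 50.5 FPKM in WT_untreated, 57.6, 59.9 and 55.0 in WT_PBS, 66.6, 50.1 and 49.8 in WT_Oxarol, and 87.1, 74.5 and 79.5 in VDRcKO_Oxarol. All libraries of the last group were above all wild type libraries. Against WT_Oxarol it rose by 0.54 ± 0.11 (1.45-fold; adjusted p = 0.0180). The FPKM ratio of Cldn4 to Cldn1, described here without a test, was 2.62 to 3.82 in the wild type libraries and 1.31, 1.504 and 1.19 in those labelled VDRcKO_Oxarol.

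Cldn23 was listed at 26.8, 22.7 and 29.3 FPKM in WT_Oxarol, against 13.7, 21.7 and 18.4 in VDRcKO_Oxarol, and fell by 0.54 on the log2 scale (SE 0.15, adjusted p = 0.0440). The 2 groups did not overlap, but 22.7 and 21.7 lay close together. Tjp1 had 4.08, 4.46 and 4.26 FPKM in WT_Oxarol and 6.78, 5.34 and 6.65 in VDRcKO_Oxarol, a rise of 0.46 ± 0.11 (adjusted p = 0.0297). Against the other wild type groups, the lowest VDRcKO_Oxarol value of Tjp1 (5.34) was below WT_untreated replicate 3 (5.47). The symbol Cldn25 was lower by -0.27 ± 0.08 and did not pass (adjusted p = 0.0531). Ocln and the endothelial Cldn5 differed by 0.26 ± 0.12 and 0.36 ± 0.14, with adjusted p = 0.154 and 0.113.

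Desmoplakin, the desmosome's link to keratin filaments, is encoded by Dsp. It was listed at 136, 130 and 114 FPKM in WT_untreated, 139, 147 and 126 in WT_PBS, 148, 109 and 113 in WT_Oxarol, and 79.4, 85.0 and 88.3 in VDRcKO_Oxarol. The last group was below every wild type library. Dsp fell by 0.53 on the log2 scale against WT_Oxarol (SE 0.12, adjusted p = 0.0232). The plaque genes Jup, Pkp1 and Pkp3 differed by 0.01 ± 0.17, 0.10 ± 0.16 and -0.10 ± 0.27, and none passed.

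No desmosomal cadherin was called. Dsc2, a desmocollin found in many epithelia besides skin, had the largest difference of them (0.73 ± 0.22, adjusted p = 0.0557), with 0.951, 2.43 and 1.03 FPKM in WT_Oxarol against 3.63, 3.11 and 2.25; these groups overlapped. Dsc1 was lower by -0.55 ± 0.24 (adjusted p = 0.146) and Dsg3 by -0.32 ± 0.14 (adjusted p = 0.153), both without overlap. Dsg1a, Dsg1b and Dsg1c each differed by -0.23 (SE 0.16 to 0.17), and Dsc3 by 0.06 ± 0.15. Cdh1, the E-cadherin of adherens junctions, stood at 51.3, 47.3 and 52.1 FPKM in WT_Oxarol and 62.7, 67.8 and 65.9 in VDRcKO_Oxarol, without overlap and without passing (0.38 ± 0.20, adjusted p = 0.215).

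Gja1 stood at 90.4, 95.9 and 100 FPKM in WT_Oxarol and 150, 127 and 106 in VDRcKO_Oxarol, above WT_Oxarol in all 3 (0.40 ± 0.13, adjusted p = 0.0695). Gjb6 differed by -0.83 ± 0.28 (adjusted p = 0.0734) and Gjb2 by 0.51 ± 0.26 (adjusted p = 0.207), both with overlap. The ratio of Gjb2 to Gjb5 was 0.131 to 0.277 in WT_untreated, 0.501 to 1.14 in WT_PBS and WT_Oxarol, and 0.816 to 2.09 in VDRcKO_Oxarol. That of Gjb6 to Gjb2 was 0.182 to 0.317 in WT_Oxarol, 0.0924 to 0.162 in the other wild type libraries and 0.0763 to 0.134 in VDRcKO_Oxarol.

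**Figure D3:**
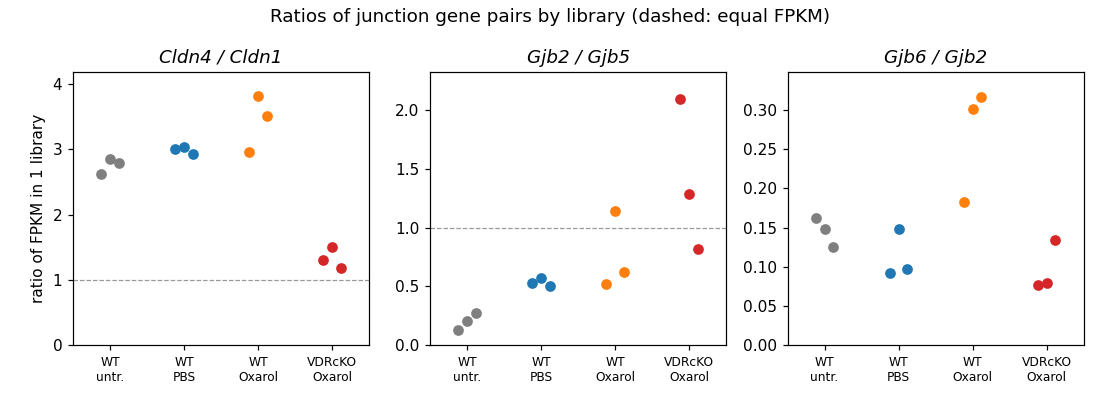
Ratio of the FPKM of 2 junction genes within each library, with the axis from 0 and a dashed line where both are equal, which lies above the axis for Gjb6 over Gjb2; the 3 points of a group are its libraries in replicate order. Cldn4 over Cldn1 is at most 1.504 in VDRcKO_Oxarol and at least 2.62 in wild type, and Gjb2 over Gjb5 is at most 0.277 in WT_untreated.

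With the run of library codes as a term, 2 of the 6 calls remained: Cldn4 (-0.73, adjusted p = 0.0190) and Cldn1 (0.63, adjusted p = 0.0423). The calls lost included Cldn23 at -0.64 (adjusted p = 0.0862), Dsp at -0.40 (0.111) and Tjp1 at 0.38 (0.139), each in the same direction as without the term. Within the second run, the single WT_Oxarol library had Cldn4 at 174 FPKM and Cldn1 at 49.8. Without VDRcKO_Oxarol replicate 1, Cldn4 was the 1 member called, where 445 of all genes were called. Leaving out WT_untreated replicate 1 gave 11 member calls and 3435 over all genes. Without WT_Oxarol replicate 2 or VDRcKO_Oxarol replicate 3 the member count was 3 each, with 322 and 691 calls over all genes. With every library kept, 1848 of all genes were called. Single omissions that ended a call were WT_Oxarol 2 and VDRcKO_Oxarol 1 for Cldn1 (0.47 to 0.48) and each VDRcKO_Oxarol library for Dsp (-0.56 to -0.49). For Tjp1 they were each WT_Oxarol library and VDRcKO_Oxarol 1 and 3 (0.40 to 0.48), and quantile normalization brought Tjp1 to 0.27 (adjusted p = 0.114). Cldn23 lost its call without any library except WT_untreated 1 and 3 and VDRcKO_Oxarol 2 (-0.64 to -0.37), and also with no filter (adjusted p = 0.0823) and with only the 2 groups fitted (adjusted p = 0.0673).

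Markers of other cell types also differed between these groups. Summed over 17 hair follicle genes, FPKM was 16.5 to 98.1 in WT_Oxarol, up to 528 in the other wild type libraries and 421 to 1675 in VDRcKO_Oxarol, where 15 of the 17 were called higher. Endothelial markers summed to 30.0 to 34.8 in WT_Oxarol and 48.1 to 52.7 in VDRcKO_Oxarol (2 of 10 higher), fibroblast markers to 2216 to 2864 and 3331 to 4026 (3 of 7), and macrophage markers to 356 to 461 and 640 to 848 (5 of 6). No basal keratinocyte marker of 7 was called; of 7 suprabasal markers Ivl and Sbsn were called higher and Dmkn lower. No gene of these lists was at 0 in every library. Their part in the junction gene results was not tested.

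**Figure D4:**
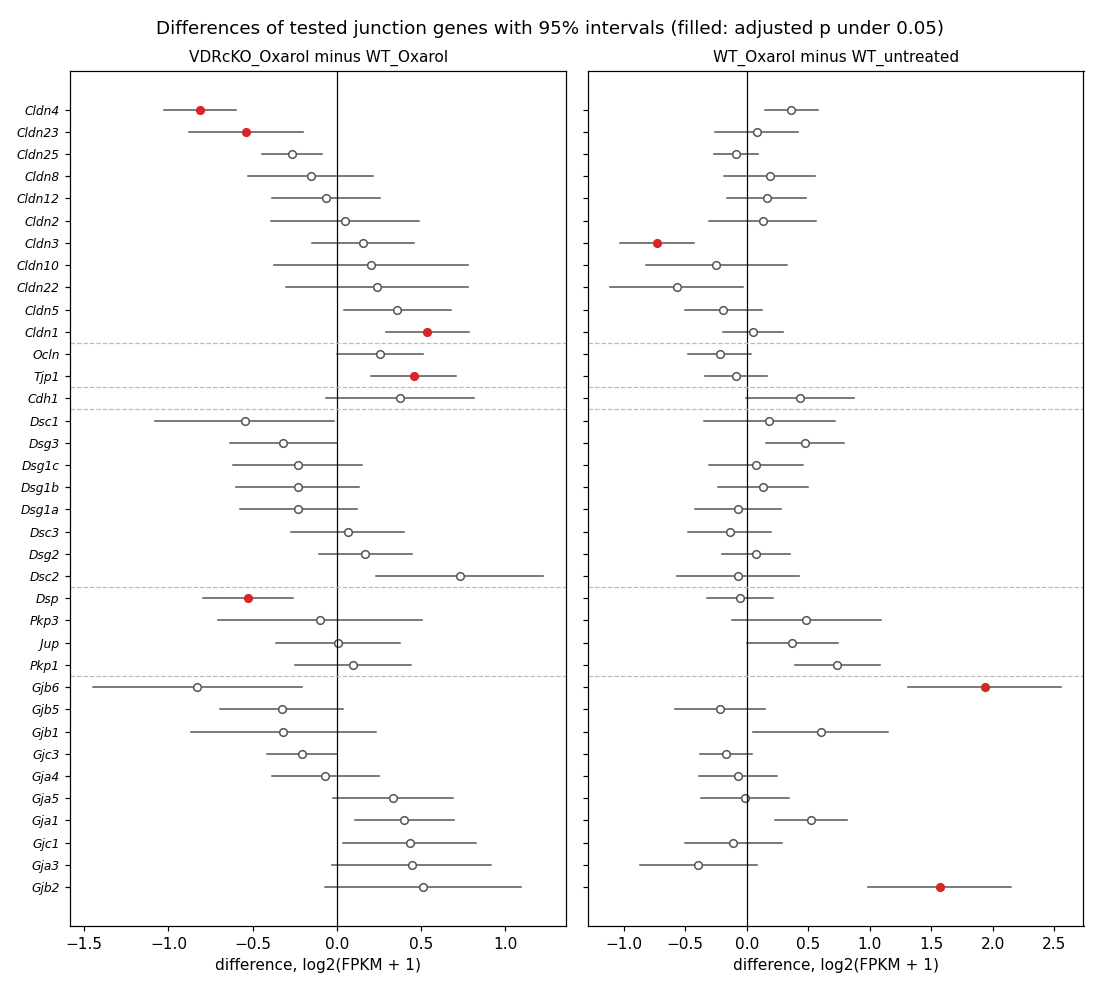
Difference of each of 36 tested members on the log2(FPKM + 1) scale, with 95% intervals from limma, for VDRcKO_Oxarol minus WT_Oxarol (left) and WT_Oxarol minus WT_untreated (right); filled points have an adjusted p under 0.05 and dashed lines separate claudins, other tight junction genes, Cdh1, desmosomal cadherins, plaque genes and connexins. On the left Cldn4 is lowest among claudins at -0.81 and Cldn1 highest at 0.54, and on the right Gjb6 (1.93) and Gjb2 (1.57) stand above the rest.

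Set against PBS-treated wild type ears, which share no library with WT_Oxarol, the libraries labelled VDRcKO_Oxarol differed in more members. Of 38, 4 rose (Cldn1, Gja1, Tjp1 and Gja5) and 6 fell (Cldn4, Dsp, Cldn25, Cldn23 and Gjb5 among them), where 10.8% of all genes tested were called higher and 5.49% lower. The median log2 difference was -0.05 over the members and 0.09 over all genes. An unadjusted p under 0.05 (limma) was found for 16 of 38 members and 34.3% of all genes tested. The share of all genes without overlap was not counted for this comparison either. Genotype and ointment differ together here, and the VDRcKO_Oxarol libraries are the same as in the comparison with WT_Oxarol. In this comparison 8 of 17 hair follicle, 6 of 6 macrophage, 3 of 7 fibroblast and 7 of 10 cartilage markers were called higher, and their part in these results was not tested.

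Cldn4 fell by 0.68 on the log2 scale (SE 0.10, adjusted p = 0.00337) and Dsp by 0.69 (SE 0.12, adjusted p = 0.00715). Cldn25, listed at 91.5, 96.7 and 94.7 FPKM in WT_PBS and 69.0, 70.8 and 73.6 in VDRcKO_Oxarol, fell by 0.40 (SE 0.08, adjusted p = 0.0122) and was below all wild type libraries. Cldn23 fell by 0.54 (SE 0.15, adjusted p = 0.0382). Gjb5 was listed at 55.2, 58.3 and 50.4 FPKM with PBS and at 33.4, 37.3 and 37.8 in VDRcKO_Oxarol, without overlap. The Gjb5 decrease was -0.58 ± 0.17 (adjusted p = 0.0390).

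Gja1 rose by 0.68 ± 0.13 (adjusted p = 0.0114): its values were 61.2, 61.3 and 77.1 FPKM in WT_untreated and 76.8, 86.1 and 73.7 in WT_PBS, against 150, 127 and 106. Every VDRcKO_Oxarol library was above every wild type library for this connexin. Cldn1 rose by 0.47 ± 0.11 (adjusted p = 0.0212) and Tjp1 by 0.40 ± 0.11 (adjusted p = 0.0393), where WT_PBS held Tjp1 at 4.45, 4.47 and 4.52. Gja5, a connexin of arterial endothelium, was near the filter: 0.237, 0.516 and 0.687 FPKM in WT_PBS against 1.37, 0.982 and 1.12, without overlap (0.55 ± 0.16, adjusted p = 0.0426). WT_untreated held Gja5 at 0.424, 0.692 and 1.13, and its replicate 3 lay above VDRcKO_Oxarol replicates 2 and 3. The other vascular members Gja4 and Cldn5 differed by 0.15 ± 0.14 and 0.18 ± 0.14 and did not pass. The 10 endothelial markers summed to 28.4 to 48.6 FPKM in WT_untreated, where replicate 3 was within the range of VDRcKO_Oxarol. They summed to 32.4 to 38.1 FPKM in WT_PBS and 48.1 to 52.7 in VDRcKO_Oxarol, without overlap. All 10 differed upwards (median 0.40), 6 with an unadjusted p under 0.05, and none was called by limma; their part in the result for Gja5 was not tested.

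With the run of codes as a term, 4 of the 10 calls remained: Cldn4 (-0.60), Dsp (-0.57), Cldn25 (-0.45) and Cldn1 (0.56); those lost included Gja1 at 0.61 (adjusted p = 0.0582), Cldn23 at -0.64 (0.0703), Gjb5 at -0.44 (0.177), Tjp1 at 0.32 (0.170) and Gja5 at 0.41 (0.189), all in the same direction as without the term. Cldn4 and Dsp passed under all 19 alternatives. Single omissions that ended a call were WT_PBS 2 for Cldn25 (-0.38), WT_PBS 1 for Gja1 (0.66), and each WT_PBS library and VDRcKO_Oxarol 1 and 3 for Cldn1 (0.42 to 0.50) and Cldn23 (-0.62 to -0.37). Tjp1 was lost with 8 omissions (0.35 to 0.40): any library of the treated groups except VDRcKO_Oxarol 2. Quantile normalization brought it to 0.21 (adjusted p = 0.190), and it was also lost with no filter, with a filter of 5 FPKM and with median-of-ratios scaling (adjusted p = 0.0547, 0.0569 and 0.0759). Gjb5 was lost with 8 (-0.64 to -0.53), those being WT_untreated 2, WT_Oxarol 3 and any library of WT_PBS or VDRcKO_Oxarol. Gja5 was lost with 7 of the 9 omissions that left it tested (0.43 to 0.61): WT_untreated 2, WT_PBS 1 and 2, any WT_Oxarol library and VDRcKO_Oxarol 2. It was also lost with a pseudocount of 0.1 (1.19), with no filter and with median-of-ratios scaling (adjusted p = 0.0610, 0.0713 and 0.0540). With no filter Cldn23 and Gjb5 did not pass (adjusted p = 0.0731 and 0.0776), nor did Cldn23 with only the 2 groups fitted (0.0529). The count was 3 and 4 without WT_PBS 2 and WT_PBS 1, with 645 and 540 calls over all genes. It was 5 without VDRcKO_Oxarol 1 (828 over all genes) and 6 without WT_PBS 3 (1818) or VDRcKO_Oxarol 3 (1184). Without WT_untreated 1 it was 15 (3881), against 10 and 2286 with every library kept.

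Further junction genes came from lists drawn up beside the members. None of them was called in the 3 comparisons among wild type groups, where limma called 43, 1 and 184 of all genes; the counts with VDRcKO_Oxarol that follow stand beside 8.71% higher and 4.43% lower of all genes against WT_Oxarol, and 10.8% and 5.49% against WT_PBS. Of 21 other tight junction genes tested, 3 rose against WT_Oxarol (Inadl, Magi1 and Sympk) and Cgn fell. Cingulin, the product of Cgn, is a cytoplasmic plaque protein; its gene was listed at 37.0, 35.1 and 42.9 FPKM in wild type ears with ointment and 24.6, 29.4 and 25.2 in VDRcKO_Oxarol, without overlap, and fell by 0.52 (SE 0.11, adjusted p = 0.0172). Inadl and Magi1 encode scaffold proteins and rose by 0.49 ± 0.13 and 0.45 ± 0.13. Sympk, whose product also acts in messenger RNA 3′ end formation, rose by 0.95 ± 0.25, from 3.70, 3.19 and 5.22 FPKM to 8.17, 8.40 and 9.35. Against WT_PBS, 4 of the 21 rose (Inadl, Pard3, Prkci and Sympk) and Cgn fell (-0.64 ± 0.11, adjusted p = 0.00617). Pard3 and Prkci encode partners of the cell polarity complex and rose by 0.45 ± 0.08 and 0.50 ± 0.13.

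Of 13 other adherens junction genes, Epcam, Pvrl1 and Vcl rose against WT_Oxarol. Epcam, an epithelial adhesion molecule that binds claudins, was listed at 55.0, 48.7 and 50.9 FPKM in WT_untreated, 50.2, 54.1 and 53.7 in WT_PBS, 41.4, 22.6 and 28.2 in WT_Oxarol, and 58.4, 54.9 and 48.2 in VDRcKO_Oxarol. WT_Oxarol was thus below the other 3 groups without overlap. Which cells of the bulk skin held Epcam RNA was not tested. The difference from WT_Oxarol to VDRcKO_Oxarol was 0.83 ± 0.17 (adjusted p = 0.0180), that from WT_PBS to WT_Oxarol was -0.80 ± 0.17 (adjusted p = 0.114) and that from WT_PBS to VDRcKO_Oxarol 0.03 ± 0.17. The nectin gene Pvrl1 rose against WT_Oxarol by 0.97 ± 0.27 and against WT_PBS by 0.97 ± 0.27, and the vinculin gene Vcl rose by 0.36 ± 0.10 against WT_Oxarol. Ctnna1, the catenin that couples cadherins to actin, fell by 0.41 against WT_PBS (SE 0.08, adjusted p = 0.00947).

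Of 4 further gap junction and pannexin genes tested, Gje1 fell against WT_PBS (-0.39 ± 0.10, adjusted p = 0.0245). RefSeq has Gje1 both as a gene and as a synonym of Gjc3, which is listed on its own at 4.02 to 6.71 FPKM, so which gene Gje1 counts was not settled. None of 5 other desmosome genes and none of 6 hemidesmosome genes was called in any of the 5 comparisons. Perp, a desmosomal protein gene, stood at 733 to 1108 FPKM over all libraries.

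One wild type library stood apart within its group. WT_untreated replicate 1 was the lowest of all 12 libraries for 11 of the 38 tested members, against 9 for VDRcKO_Oxarol replicate 1 and at most 5 for each other library. The same count was not made over all genes tested, so it is not shown to be particular to junction genes. Outside the members, Vdr was also lowest in this library, at 4.87 FPKM. In it Cdh1 was at 24.1 FPKM, against 43.3 to 67.8 in the others, and the plakophilin gene Pkp3 at 33.6 against 73.0 to 107. Jup, which encodes plakoglobin, stood at 71.0 against 98.8 to 143, and Pkp1 at 56.3 against 79.4 to 141. Hemidesmosome genes summed to 139 FPKM in this library and 166 to 228 in the others. It was not low for Dsg1a (204), Dsp (136) or Dsc3 (185), and it was highest of all 12 for Gjb5, Ocln and Cldn10.

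The 21 members that were not tested lay low throughout. Cldn6 and Cldn18 were listed at 0 in all 12 libraries. Cldn13, Cldn16, Cldn26, Cldn27 and Gja10 were above 0 in 1 library each; Cldn26 and Cldn27 are RefSeq synonyms of Tmem114 and Tmem235. Below 1 FPKM in every library were 17 members, among them those 7 and Cldn7, Cldn9, Cldn14, Cldn17, Cldn20, Cldn24, Dsg4, Gja6 and Pkp2. Cldn11, Cldn15 and Cldn19 exceeded 1 FPKM in fewer than 3 libraries, with highest values of 1.79, 1.24 and 1.21. Dsg4, the desmoglein of the hair shaft, stood at 0 to 0.0378 FPKM in WT_untreated and WT_Oxarol. It stood at 0.0140, 0.0653 and 0.213 in WT_PBS, and 0.485, 0.154 and 0.414 in VDRcKO_Oxarol. The hair follicle sums were 32.9, 42.0 and 528 FPKM in WT_PBS and 1675, 977 and 421 in VDRcKO_Oxarol. Among WT_PBS libraries both were highest in replicate 3, but within VDRcKO_Oxarol their order differed.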

How the data were processed

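Ear skin RNA of 12 libraries was sequenced after NEBNext Ultra library preparation, per the labels' protocols. TopHat2 2.0.8, Bowtie2 2.1.0 and Cufflinks 2.1.1 and the build mm9 are named in the submitters' processing notes; no role or setting is stated for any of them. The values the authors deposited, 1 per gene symbol, were taken as FPKM from the named tools and the range of the values, since the files print no unit. FPKM are normalized for gene length and depth, no counts were used, and a value of 0 may be a failed estimate.

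Groups came from the labels. Nothing in them says that a group's libraries came from separate animals; p-values therefore cover the spread among these libraries alone, and that spread may be technical. Replicates were numbered in accession order and are unpaired. The members, the gene lists and the comparisons were chosen with earlier results of these data known. Members called in a comparison were given in full, by adjusted p within each role, and up to 4 per other junction list. A few members are not reported here by name or drawn; the counts and fits cover all members.

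Values were tested as log2(FPKM + 1), which understates changes of low genes, with limma 3.58.1 in R 4.3.3: the 4 group means were fitted together with a variance trend, leaving 8 residual degrees of freedom, and 5 comparisons were drawn, each adjusted by Benjamini-Hochberg at 0.05 over 14059 genes. Errors are SE from this fit unless named SD. The fit and the depth estimate were tested on simulated data. Alternatives were a filter of 5 FPKM or none, a pseudocount of 0.1, median-of-ratios or quantile scaling, the 2 compared groups fitted alone, the run of library codes as a term, the first run alone, and leaving out each library. Marker lists not described above (sebaceous gland, Schwann cell, cartilage, skeletal and smooth muscle) are given in the closing section. Figures were drawn with matplotlib 3.10.9.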

Additional observations from a re-analysis of the deposited data

How the results depend on the processing

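All 358 values of called members under the alternatives kept their direction; 248 stayed past the threshold and 110 did not. Junction genes called numbered 6 between VDRcKO_Oxarol and WT_Oxarol, 2 with the run of codes as a term and 1 to 11 with each library left out. Against WT_PBS they numbered 10, 6 with no filter, 4 with that term and 3 to 15 with each library left out. Between WT_Oxarol and WT_untreated they numbered 3, none with no filter, with only the 2 groups or with the first run alone (0 in each), and 0 to 4 with each library left out. Between WT_Oxarol and WT_PBS the count was 0, and 0 to 1 with each library left out; between WT_PBS and WT_untreated it was 0 under every alternative tried. Over all genes, VDRcKO_Oxarol against WT_Oxarol gave 1848 calls, 283 with the term and 322 to 3435 with each library left out; against WT_PBS it gave 2286, 611 with the term, 3875 with only the 2 groups and 540 to 3881. WT_Oxarol against WT_untreated gave 184, 44 with no filter, 20 with only the 2 groups, 20 in the first run and 28 to 248. WT_Oxarol against WT_PBS gave 43, 0 with only the 2 groups, 2 in the first run and 4 to 128; WT_PBS against WT_untreated gave 1, 5 with a pseudocount of 0.1, 4 with no filter, 7 with only the 2 groups, 9 in the first run and 0 to 5. The cause was not tested.

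Quantile normalization moved the median of all genes by -0.12 between VDRcKO_Oxarol and WT_Oxarol and by -0.13 against WT_PBS. All-gene calls against WT_Oxarol then stood at 820 higher and 1292 lower (1225 and 623 before), with members at 1 and 5, and against WT_PBS at 968 and 1620, with members at 3 and 7. Median-of-ratios scaling gave 826 and 1151, and 1037 and 1373, with members at 2 and 5, and 2 and 8. No paired analysis was possible because the labels give no replicate numbers. Read depth is estimated only to within a factor of 2, and its part in the values of members near 1 FPKM such as Gja5 was not tested.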

Other observations

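Cldn3 and Cldn4 both lie on chromosome 5 in the RefSeq build GRCm38.p6, where the windows before their starts begin at 134985964 and 134946935. From WT_untreated to WT_Oxarol Cldn3 fell by 0.73 on the log2 scale, while Cldn4 differed by 0.36 (adjusted p = 0.103). In the libraries labelled VDRcKO_Oxarol Cldn4 was lower than in WT_Oxarol, and Cldn3, at 2.06, 2.37 and 2.18 FPKM, overlapped WT_Oxarol (0.16 ± 0.14, adjusted p = 0.452).

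Krt15, a keratin of basal cells, stood at 2092 to 2482 FPKM in WT_untreated, 1672 to 2110 in WT_PBS, 814 to 1354 in WT_Oxarol and 1114 to 1218 in VDRcKO_Oxarol, so that both ointment groups lay below WT_PBS. Krt1, a suprabasal keratin, stood at 106 to 159, 99.2 to 148, 344 to 502 and 488 to 620 FPKM in the same order. Each is 1 of 7 genes in its marker list, where other genes differed the opposite way from WT_untreated to WT_Oxarol. Between VDRcKO_Oxarol and WT_Oxarol, 6 of 10 cartilage markers and 1 of 4 smooth muscle markers tested were called higher, and none of 7 Schwann cell markers tested. Of 8 sebaceous gland markers, Soat1 alone was called, and was lower, as it also was against WT_PBS. Of all genes tested, 8.71% were called higher and 4.43% lower against WT_Oxarol. Sebaceous gland markers summed to 1151 to 1571 FPKM in WT_Oxarol and 954 to 1155 in VDRcKO_Oxarol, and skeletal muscle markers to 2125 to 3571 and 3369 to 4179; WT_untreated replicate 3 had the highest skeletal muscle sum of the 12 libraries, 9016.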
